A study of Mus musculus with 35 samples.

Results

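The cell proliferation genes are 34 genes of the cell division machinery, chosen by name: cyclins and their kinase, replication proteins, enzymes of DNA precursor supply, mitotic regulators and a few chromatin and cytoskeletal genes. 32 of them were measured, at 44 probe sets, among 8251 gene symbols and 12422 probe sets of the Affymetrix MG-U74Av2 mouse array. No probe set carried the symbol of Ccnb1 in the annotation used, and both probe sets of Tyms carried more than 1 symbol, so neither gene was analysed here. Perigonadal fat of C57BL/6J mice aged 22 weeks was profiled on 35 arrays, 1 per sample, in 10 groups. The females were lean wild type (4 arrays), untreated Ay/+ (4), Ay/+ given pioglitazone (3), untreated ob/ob (4), ob/ob given pioglitazone (3) and ob/ob given CL316243 (2). The males were lean wild type (4), untreated ob/ob (4), wild type made obese on diet D12451 (3) and such diet-induced obese mice given pioglitazone (4). ob/ob mice lack leptin, and the Ay allele drives agouti outside the skin, where it blocks melanocortin receptors. Both alleles act in the whole body. Pioglitazone, an activator of the nuclear receptor PPARγ, was given at 10 mg/kg/day and CL316243, an agonist of the β3 adrenergic receptor, at 3 mg/kg/day, each for 2 weeks. The label of pioglitazone-treated Ay/+ female 3 gives no dose. The labels do not say whether a sample is 1 mouse or a pool, so the p-values measure the spread between these samples.

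A dividing cell passes from G1 through DNA synthesis (S phase) and G2 into mitosis, driven by cyclins that switch on cyclin-dependent kinases. E2F factors switch on the genes of G1 and S phase, and the genes of G2 and mitosis are commonly switched on through CCAAT boxes and the cell cycle homology region (CHR) of their promoters. In fat, mature adipocytes rarely divide, whereas adipocyte precursors, endothelial cells and macrophages can. The arrays read whole tissue, so a larger share of dividing cells and more RNA per cell cannot be told apart.

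The promoters of Cdk1, Tk1 and Ccnb2 are shown because these were 3 of the 4 genes with the largest differences between ob/ob and lean males. The reference table used here holds no promoter entry for the other, Stmn1. Each line gives the 180 bases before the annotated start in RefSeq GRCm38.p6, read 5′ to 3′ along the gene: Cdk1 from chr10:69352913-69353092, Tk1 from chr11:117826015-117826194 and Ccnb2 from chr9:70421555-70421734, all on the minus strand. Capitals mark matches on either strand to the CHR (TTTGAA), the CCAAT box (CCAAT, or ATTGG on the other strand) and the E2F site (TTTCCCGC, TTTCGCGC, TTTGCCGC or TTTGGCGC).
Cdk1: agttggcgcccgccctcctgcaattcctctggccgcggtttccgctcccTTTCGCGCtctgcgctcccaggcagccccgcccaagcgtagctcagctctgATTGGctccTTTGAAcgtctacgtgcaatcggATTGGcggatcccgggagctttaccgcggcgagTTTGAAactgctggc
Tk1: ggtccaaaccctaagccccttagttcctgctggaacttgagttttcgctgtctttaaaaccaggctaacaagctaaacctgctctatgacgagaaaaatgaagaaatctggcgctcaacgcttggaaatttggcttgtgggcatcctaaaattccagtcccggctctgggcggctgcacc
Ccnb2: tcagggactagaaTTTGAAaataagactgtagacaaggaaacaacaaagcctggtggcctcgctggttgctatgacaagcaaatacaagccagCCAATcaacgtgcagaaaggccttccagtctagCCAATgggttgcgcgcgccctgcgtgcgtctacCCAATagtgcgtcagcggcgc
The Cdk1 stretch held 2 CHR matches, beginning 71 and 15 bases before the start, CCAAT boxes at 80 and 48 bases and an E2F site at 131 bases. The Ccnb2 stretch held CCAAT boxes at 87, 54 and 21 bases and a CHR match at 167 bases, and the Tk1 stretch held none of the 3 motifs. No match overlapped another. A window of 300 bases, from 250 before to 50 after the start, was available for 26 of the 32 measured members. Of these, 20 (76.9%) held a CCAAT box, against 41.1% of the 27025 genes in the table. The CHR stood in 10 (38.5%), against 20.2% of all genes, and the E2F site in 8 (30.8%), against 2.6%. These are matches of letters, and binding was not measured.

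Signals below are array intensities, each array having been multiplied so that its 2% trimmed mean was 250. Differences are on the log2 scale of the signal plus 23, with the standard error (SE), from limma fitted over all 35 arrays and 12422 probe sets. A probe set was called higher or lower where its Benjamini-Hochberg adjusted p was under 0.05. The 35 arrays correlated with each other at Pearson r between 0.812 and 0.980. Adipoq, which encodes adiponectin and marks adipocytes, had group mean signals from 5949.7 to 17161, so every group carried the marker of the labelled tissue. The experiment files gave 13 scan days and set apart 22 arrays, called earlier here, from 13 called later. The split rests on a scanner type entry, present for the later arrays only, and not on the scan dates. 4 arrays stood apart. Ay/+ female 1 and ob/ob female 4, each the only later array of its group, did so by low mean correlation (0.872 and 0.877). Pioglitazone-treated Ay/+ female 3 did so by a high signal floor (5th percentile 23.9). Pioglitazone-treated diet-induced obese male 1 did so by a GAPDH 3′ to 5′ ratio of 46.9. Of the 32 members, 21 were called in at least 1 of the 12 pairwise comparisons. Signals were low for several: 7 members averaged below 2 times the added 23, and 3 below it.

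Genes of every role were higher in the fat of ob/ob males than of lean males. 14 of the 32 members rose and none fell, against 5.62% of all probe sets called higher and 4.96% called lower. The median difference over the members was 0.95 on the log2 scale, against 0.06 over all probe sets, and 30 of the 32 differences were positive. In 21 members every ob/ob array lay above every lean array, which held for 11.8% of all probe sets, and in 1 every ob/ob array lay below, against 8.97%. Cdk1, Tk1, Stmn1 and Ccnb2 had the 4 largest differences, whose order among themselves was not tested.

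Among the cyclins and kinases, Cdk1, the kinase that drives entry into mitosis, read 10.3, 27.9, 14.4 and 19.2 in the lean males and 204, 315, 308 and 214 in the ob/ob males. The groups were far apart, and 3 of the 4 lean arrays sat below the added 23, which sets the size of the difference. On the scale used it was 2.78 ± 0.28 (SE; limma adjusted p = 5.26e-09). Ccnb2, a B-type cyclin that partners Cdk1, read 217, 235, 228 and 195 against 863, 1003, 945 and 903. The arrays of each group lay close together, and the difference was 1.98 ± 0.18 (limma adjusted p = 1.14e-09), or 3.94-fold. Ccna2, cyclin A2 of S phase and G2, ranged from 80.55 to 189.5 against 201.8 to 353 and differed by 0.94 ± 0.26 (limma adjusted p = 0.0116). Its call was lost without lean male 2 or ob/ob male 2, with an adjusted p of up to 0.0823. The G1 cyclins were not called: the difference was 0.63 for Ccnd1, −0.72 for Ccnd2 and 0.32 for Ccne1. For Ccnd2, the 4 ob/ob arrays all lay below the 4 lean arrays.

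Among the 10 replication genes, Pcna and Mcm3 rose. Pcna, the sliding clamp of DNA polymerases, read 808, 481, 488 and 418 in lean males and 1232, 2011, 1957 and 1472 in ob/ob males. The groups did not overlap, and the difference was 1.58 ± 0.26 (limma adjusted p = 3.61e-05). Mcm3, a subunit of the replicative helicase, ranged from 119 to 144 against 261 to 379 and differed by 1.13 ± 0.20 (limma adjusted p = 0.000136). 4 other helicase subunits, Mcm2, Mcm4, Mcm5 and Mcm7, also had no overlap between the groups but were not called; Mcm5, at 1.02, came closest (limma adjusted p = 0.0553).

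Among the enzymes of DNA precursor supply, Tk1, the thymidine kinase of the salvage pathway, read 39.6, 22.9, 29.8 and 58.8 in lean males and 343, 399, 367 and 399 in ob/ob males. No lean array came near an ob/ob array, and the difference was 2.75 ± 0.32 (limma adjusted p = 8.65e-08). Rrm2, the S phase subunit of ribonucleotide reductase, ranged from 4.56 to 39.9 against 55.9 to 106 and differed by 1.32 ± 0.33 (limma adjusted p = 0.00513). Its partner subunit Rrm1 ranged from 43.1 to 91.3 against 122 to 186 without overlap, and its difference of 1.09 was not called (limma adjusted p = 0.0822).

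5 of the 10 mitotic genes rose. Mad2l1, of the spindle checkpoint, read 91.6, 88.8, 74.5 and 76.2 in lean males and 233, 319.5, 332 and 346 in ob/ob males. Birc5 (survivin), of the chromosomal passenger complex, read 34.1, 30.6, 40.6 and 14.3 against 128, 131, 194 and 127. Neither gene overlapped between the groups, and the differences were 1.63 ± 0.26 for Mad2l1 and 1.68 ± 0.34 for Birc5 (limma adjusted p = 2.29e-05 and 0.000712). Cdc20, an activator of the anaphase promoting complex, ranged from 75.55 to 115 against 204 to 228 and differed by 1.04 ± 0.21 (limma adjusted p = 0.000607). Top2a, the topoisomerase that untangles replicated chromosomes, and Kif11, a kinesin of the spindle, were near or below the added 23 in lean males, at 7.45 to 24.2 and 3.91 to 21.3. In ob/ob males they ranged from 59.99 to 98.2 and from 30.7 to 50.3, with differences of 1.32 ± 0.32 and 0.91 ± 0.23 (limma adjusted p = 0.00375 and 0.00734).

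Mki67, the proliferation marker Ki-67, gave different answers at its probe sets. The brighter one, used for the counts, ranged from 47.9 to 68.5 in lean males and from 64.7 to 74.5 in ob/ob males and was not called in any comparison. The other read 39.2, 30.1, 16.0 and 6.07 in lean males and 115, 137, 204 and 126 in ob/ob males. Only the latter separated the groups, with a difference of 1.91 ± 0.29 (limma adjusted p = 8.95e-06), and it was also called in diet-induced obese against lean males, at 1.18. In females it fell in Ay/+ against lean mice, from 30.98 to 82.7 down to 4.51 to 16.5, by 1.16 ± 0.29 on the log2 scale without overlap (limma adjusted p = 0.00448). It was higher in ob/ob than in Ay/+ females by 1.45, and its ob/ob effect was larger in males than in females by 1.63 (limma adjusted p = 0.000732 and 0.0136).

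Of the chromatin and cytoskeletal genes, Stmn1 (stathmin), which destabilises microtubules, read 179.8, 274, 136 and 133 in lean males and 934, 1119, 1105 and 1127 in ob/ob males. The groups were well separated, and the difference was 2.47 ± 0.31 (limma adjusted p = 4.09e-07), or 5.55-fold. Ezh2, the methyltransferase of the Polycomb repressive complex PRC2, ranged from 25.8 to 65.7 against 109 to 159 and differed by 1.07 ± 0.27 (limma adjusted p = 0.00629). Hmgb2, a chromatin protein, did not overlap between the groups and was not called, at 0.70.

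**Figure D1:**
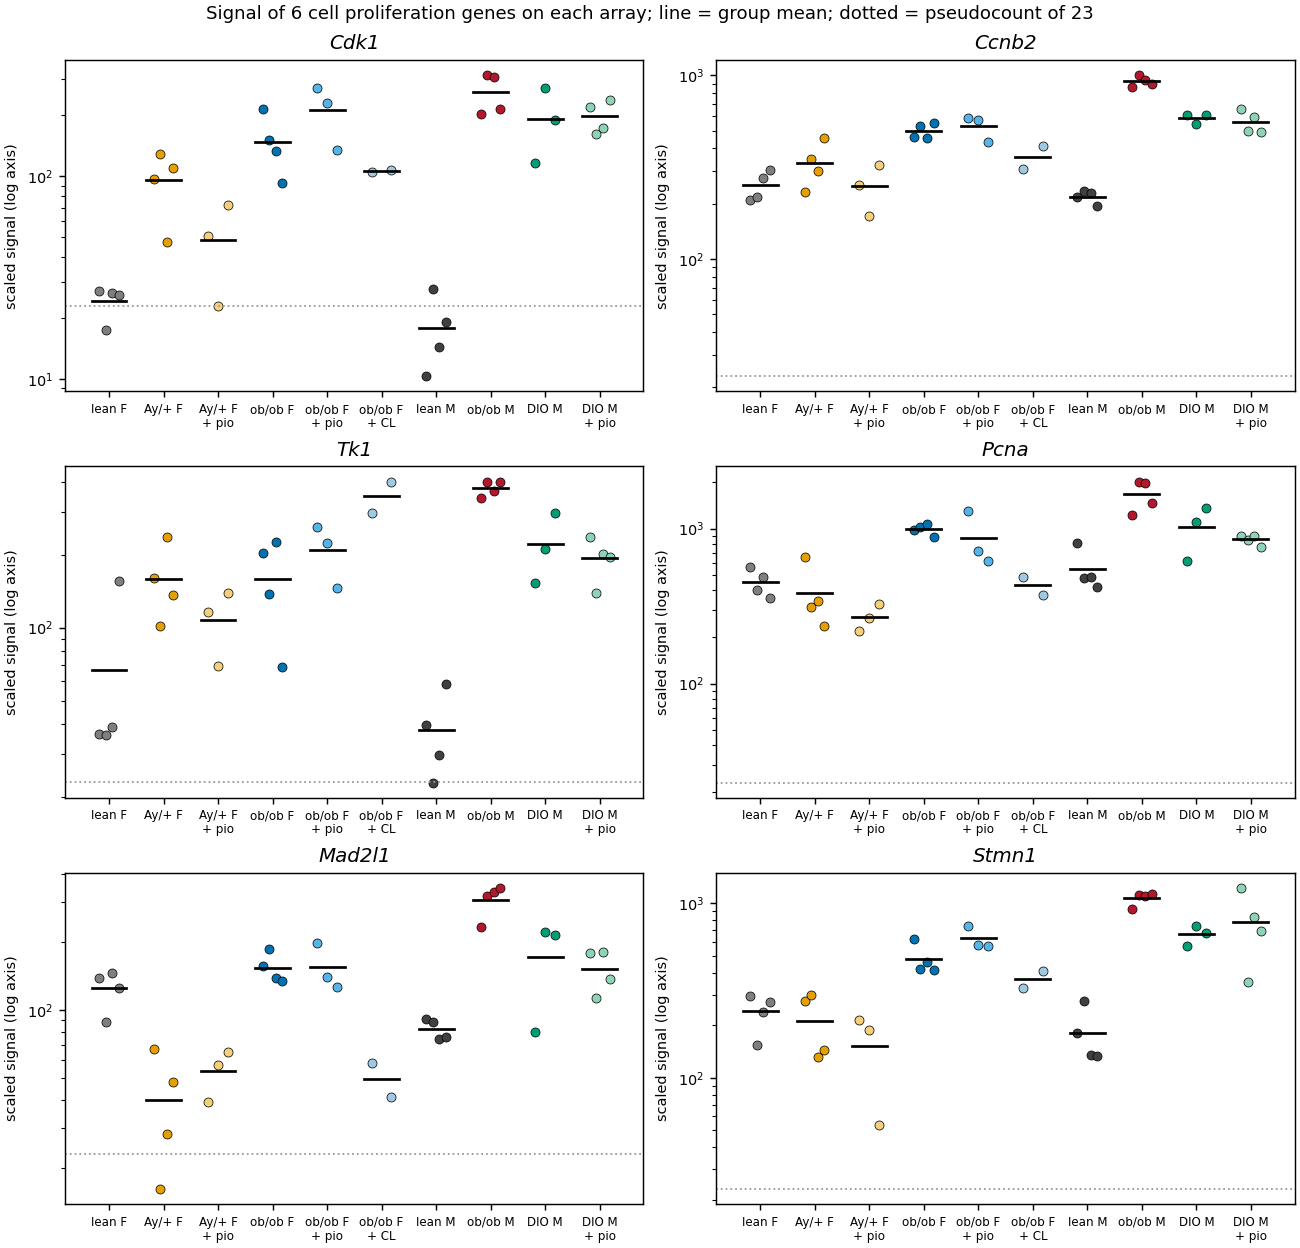
Scaled signal of Cdk1, Ccnb2, Tk1, Pcna, Mad2l1 and Stmn1 (log axis) in each of the 35 arrays, by group. Points are arrays, lines are group means and the dotted line is the added 23; the 4 ob/ob male arrays of Cdk1 lie at 204 to 315 and the 4 lean male arrays at 10.3 to 27.9.

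All ob/ob male arrays were later arrays, and no scan day held both male groups. With the later arrays alone (4 ob/ob, 2 lean), 16 members were called. The share of all probe sets called in that fit is not given here. The differences in it were 2.76 for Cdk1, 1.93 for Ccnb2, 2.90 for Tk1 and 2.15 for Stmn1. Marker genes of other cells differed between the same groups. Of 19 macrophage and myeloid genes 17 were called higher, and their mean log2 signal ranged from 8.45 to 8.67 in the lean and from 10.25 to 10.75 in the ob/ob arrays. Of 10 adipocyte genes 6 were called lower, with means of 11.17 to 11.40 against 9.93 to 10.44, as were 7 of 9 endothelial genes, with means of 8.81 to 9.12 against 7.86 to 8.15. A list of testis and male tract genes averaged 8.13 in ob/ob male 1 and 5.46 to 5.66 in the other ob/ob males, and 14 members were again called without that array. The GAPDH 3′ to 5′ ratio had a median of 1.171 in lean and 0.901 in ob/ob males, and that of ACTB 0.952 and 0.554, with overlap in both. The part of these ratios and of the macrophage, adipocyte and endothelial lists in the result was not tested.

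The diet-induced obese males were compared with the same 4 lean male arrays, so their values stand here side by side with those of the ob/ob males. 5 members rose and none fell, against 1.22% of all probe sets called higher and 0.628% called lower. 11 members had every obese array above every lean array, against 6.56% of all probe sets. The median difference was 0.43 on the log2 scale, against 0.03 over all probe sets, and 30 of 32 differences were positive.

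Cdk1 read 116, 273 and 189 in the diet-induced obese males, all above the lean arrays given above, and differed by 2.35 ± 0.30 (limma adjusted p = 5.77e-06). Tk1 read 153, 211 and 298 and differed by 1.99 ± 0.34 (limma adjusted p = 0.000427). Stmn1, at 574, 738 and 680.5, differed by 1.80 ± 0.33 (limma adjusted p = 0.00117). All 3 obese arrays lay above all 4 lean arrays in each of these genes. Ccnb2 read 605, 547 and 607 and differed by 1.34 ± 0.20 (limma adjusted p = 5.43e-05). Cdc20 read 228, 162 and 222 and differed by 0.94 ± 0.23 (limma adjusted p = 0.02), a call that was lost without lean male 1 or without diet-induced obese male 1 or 3 (adjusted p up to 0.12). Birc5, at 1.32, and Top2a, at 0.95, were not called here (limma adjusted p = 0.0569 and 0.206). With earlier arrays alone 4 members were called and with later arrays alone 3. Of the 19 macrophage genes 11 were called higher and their mean log2 signal ranged from 9.66 to 10.06 in the obese males; their part in the result was not tested.

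Between ob/ob and diet-induced obese males no member was called by limma, while 9 of 32 had an unadjusted p under 0.05. Over all probe sets 0.258% were called higher and 0.620% lower. The members' median difference was 0.41, 28 of 32 differences were positive, and the 10 members with every ob/ob array above every diet-induced obese array compare with 8.13% of all probe sets. 1 member, Ccnd2, had every ob/ob array below, against 5.97%. Ccnb2 differed by 0.64 (95% confidence interval 0.24 to 1.05; limma adjusted p = 0.128) and Mad2l1 by 0.85 (0.28 to 1.43; adjusted p = 0.161). Cdk1 differed by 0.44, with an interval from −0.18 to 1.05. The range over the members ran from −0.90 for Ccnd2 to 1.04 for Rrm1.

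In females, ob/ob fat carried more of some of these transcripts and less of others. 10 members rose and 2 fell, against 10.3% of all probe sets called higher and 14.0% called lower. The median difference was 0.38, against −0.18 over all probe sets, and 23 of 32 differences were positive. 7 members had every ob/ob array above every lean array, against 6.86% of all probe sets, and none had the reverse, against 11.9%.

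Cdk1 read 27.1, 17.5, 26.6 and 26.0 in lean females and 214, 151, 134 and 93.1 in ob/ob females. The groups did not overlap, and the difference was 1.81 ± 0.28 (limma adjusted p = 1.36e-05). Ccnb2 read 209, 217, 277 and 307 against 464, 528, 458 and 551 and differed by 0.94 ± 0.18 (limma adjusted p = 0.00036). Pcna read 566, 403, 488 and 356 against 986, 1017, 1063 and 882. It did not overlap either, and differed by 1.10 ± 0.26 (limma adjusted p = 0.00226). Top2a, at 4.19 to 8.65 in lean and 17.4 to 59.1 in ob/ob females, differed by 1.13 ± 0.32 (limma adjusted p = 0.00944), with the lean arrays all below the added 23. Mcm5, another helicase subunit, read 118, 169, 26.4 and 192 against 479.8, 391, 349.6 and 176. One lean array was far below the rest and 1 ob/ob array lay among the lean ones; the difference was 1.44 ± 0.35 (limma adjusted p = 0.00294). These 5 genes stayed called whichever of the 8 arrays was left out.

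The other 7 calls in females each rested on particular arrays. Ccnd1 (cyclin D1), at 131 to 246 in lean and 341 to 503 in ob/ob females, rose by 0.91 ± 0.27 (limma adjusted p = 0.0145) and lost its call without lean female 2 (adjusted p = 0.0568). Stmn1 (0.95; lean 154 to 295, ob/ob 414 to 629), Kif11 (0.70; lean 4.98 to 15.0, ob/ob 24.5 to 50.2) and Tk1 (1.10) lost theirs in 2, 3 and 3 of the 8 cases, with adjusted p values of up to 0.0894, 0.119 and 0.0569. Tk1 overlapped through lean female 4, which read 156 while the other lean arrays read 36.2 to 39.1 and the ob/ob arrays 68.7 to 224. Lig1, the DNA ligase of replication, ranged from 21.9 to 169 in lean and from 105 to 152 in ob/ob females. It rose by 1.03 ± 0.35 and lost its call in 6 of 8 cases (adjusted p up to 0.116). Ccnd2 (cyclin D2) ranged from 501 to 788 against 127 to 591, and Plk1, a mitotic kinase, from 187 to 350.2 against 108 to 194. They fell, Ccnd2 by 0.83 ± 0.28, and Plk1 by 0.92 ± 0.30, with overlap between the groups in both (limma adjusted p = 0.0321 and 0.0234). They lost their calls in 4 and 5 of 8 cases (adjusted p up to 0.251 and 0.0786). Plk1 was read by a probe set that its maker marks as shared within a sequence family, and its other probe sets were not called, at 0.03 and 0.77.

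The count of 12 called members went down to 7 without lean female 2 or without ob/ob female 1 and up to 14 without ob/ob female 4, the array with the low correlation. With the earlier arrays alone it was 14. The later arrays alone left 1 array per group, lean female 4 and ob/ob female 4. The former held the high Tk1 reading and the latter the low correlation. In that fit Tk1 (−0.96), Mcm5 (−0.11) and Ccnd2 (0.20) had the other sign. Over all probe sets, the share of calls that were higher was 42.4%, and 52.4% after quantile normalization. The GAPDH 3′ to 5′ ratio had a median of 1.429 in lean and 0.832 in ob/ob females. Of the 19 macrophage genes 16 were called higher, with means of 7.56 to 8.24 in lean and 9.52 to 10.28 in ob/ob arrays. Of 10 adipocyte genes, 2 were called higher and 3 lower. The part of these measures in the result was not tested.

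**Figure D2:**
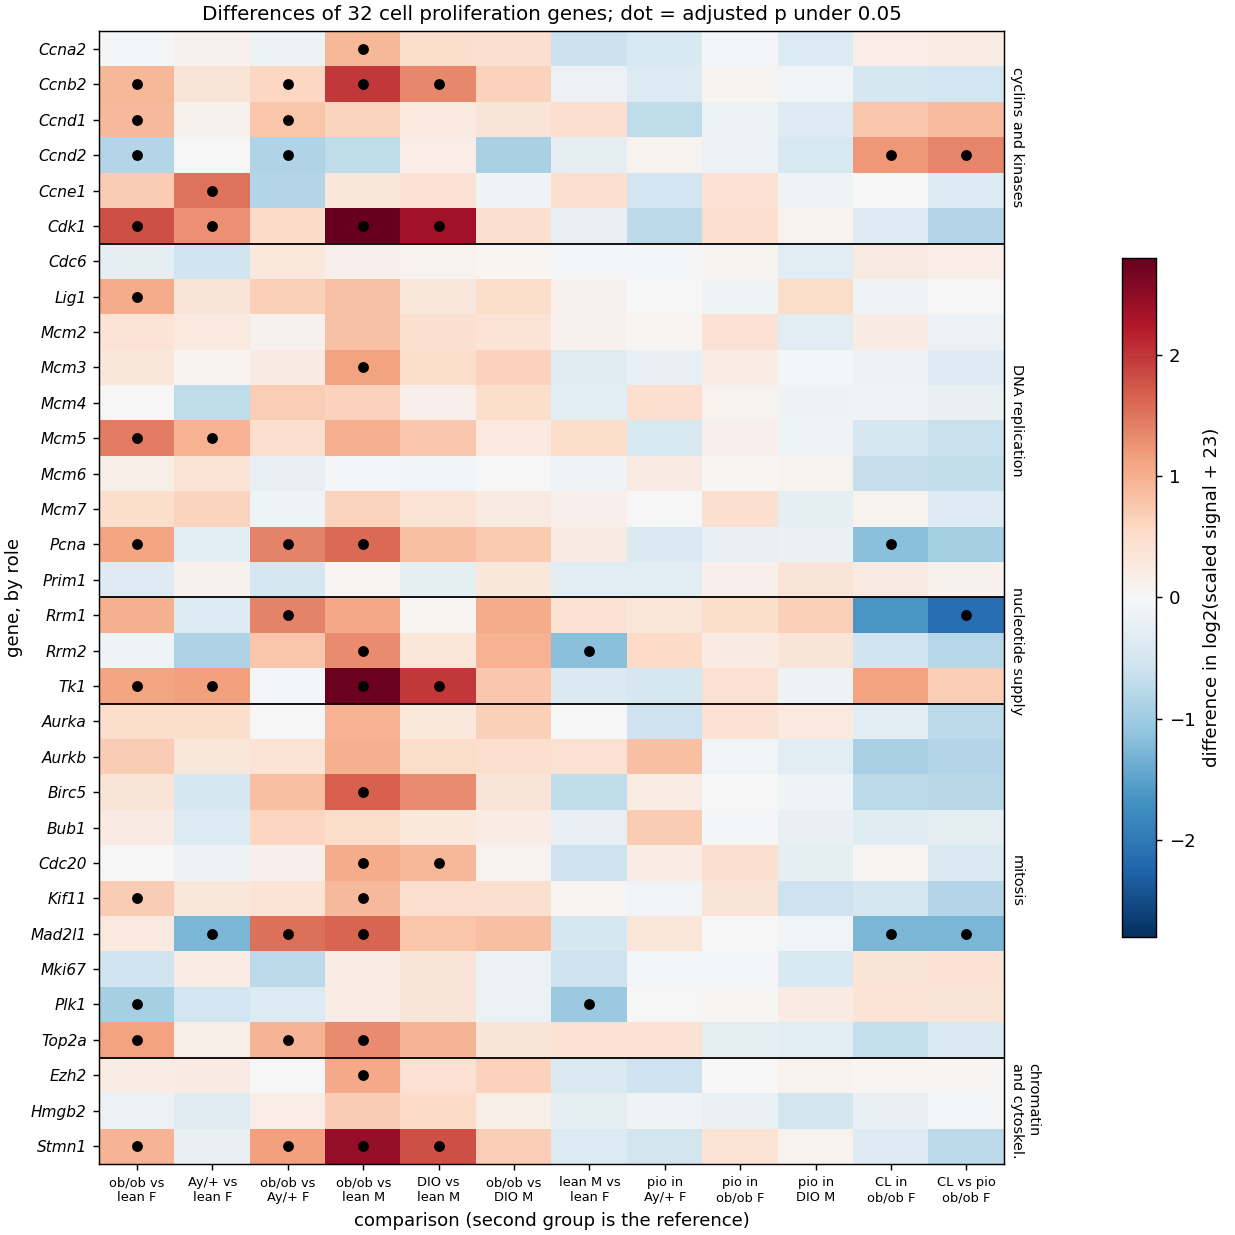
Log2 difference (colour) of the 32 measured members, by role (rows), in the 12 pairwise comparisons (columns). A dot marks a called difference; there are 14 in ob/ob against lean males, 12 in ob/ob against lean females and none in the 3 pioglitazone comparisons.

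Ay/+ females differed from the same 4 lean females in fewer members. 4 rose and 1 fell, against 6.26% of all probe sets called higher and 11.5% called lower, and the median difference was 0.13, against −0.06 over all probe sets. Cdk1 read 97.3, 129, 47.7 and 110.2 in Ay/+ females, all above the lean arrays, and rose by 1.28 ± 0.28 (limma adjusted p = 0.00162). Ccne1 (cyclin E1), which acts at the start of S phase, read 88.3, 78.9, 118 and 281 in lean and 232, 334, 696 and 474 in Ay/+ females. The groups overlapped by 1 array each, and the rise was 1.51 ± 0.33 (limma adjusted p = 0.00167). Mad2l1 went the other way, from 139, 88.2, 146 and 125 to 67.2, 16.1, 28.2 and 48.2. Every Ay/+ array was below every lean array, and the fall was 1.28 ± 0.26 on the log2 scale (limma adjusted p = 0.000804).

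Tk1 ranged from 101 to 235 and Mcm5 from 181 to 269 in Ay/+ females, against 36.2 to 156 and 26.4 to 192 in lean females. Tk1 rose by 1.15 ± 0.32 and Mcm5 by 0.97 ± 0.35, both with overlap (limma adjusted p = 0.0112 and 0.0484). Tk1 lost its call in 2 of the 8 cases with 1 array left out (adjusted p up to 0.0567) and Mcm5 in 5 (up to 0.307). Without 1 array the number of called members ranged from 3, without lean female 1, to 7, without Ay/+ female 1. A fit on the 8 compared arrays alone called none. Cdk1 was the 1 member with every Ay/+ array higher, against 4.48% of all probe sets, and Mad2l1 the 1 with every array lower, against 6.45%. Earlier arrays alone gave 8 called members. The later arrays alone were lean female 4 and Ay/+ female 1, which had a low correlation with its group. In that fit the differences were −0.26 for Ccne1 and −0.08 for Mcm5. The share of calls that were higher over all probe sets was 35.2%, and 45.6% after quantile normalization. Of the 19 macrophage genes 11 were called higher, with means of 8.62 to 9.26 in Ay/+ arrays. The GAPDH 3′ to 5′ ratio ranged from 0.741 to 1.023 for the Ay/+ arrays, all below the 1.308 to 2.51 of the lean arrays. The part of these measures in the result was not tested.

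Between the obese female genotypes, ob/ob exceeded Ay/+ in 7 members and was lower in 1, against 11.7% and 9.93% of all probe sets. 7 members did not overlap with ob/ob higher, against 5.18% of all probe sets. Mad2l1, at 157, 185, 139 and 134 in ob/ob females, lay above all Ay/+ arrays and differed by 1.55 ± 0.26 (limma adjusted p = 0.00012). Pcna, at 882 to 1063 against 235 to 659, also had no overlap and differed by 1.40 ± 0.26 (limma adjusted p = 0.00038). Stmn1, at 414 to 629 against 132 to 299, differed by 1.15 ± 0.31 (limma adjusted p = 0.0083). These 3 stayed called whichever array was left out. Rrm1 (1.39), Top2a (0.96), Ccnd1 (0.78) and Ccnb2 (0.59) were also higher and Ccnd2 (−0.84) lower, with limma adjusted p from 0.0129 to 0.0381. Top2a, Ccnd1 and Ccnb2 did not overlap between the groups, while Rrm1 (23.2 to 179 against 14.3 to 58.3) and Ccnd2 (127 to 591 against 403 to 733) did. Top2a lay below the added 23 in all Ay/+ arrays (2.25 to 14.7) and in 1 ob/ob array (17.4). The number of called members was 4 without ob/ob female 1 or without ob/ob female 2, against 8 with all arrays. The later arrays alone were ob/ob female 4 and Ay/+ female 1, both of low correlation, and there Rrm1 had a difference of −0.82. Of the 19 macrophage genes 14 were called higher in ob/ob. Of 10 adipocyte genes 4 were called lower, with list means of 10.63 to 10.81 for ob/ob, all below the 11.29 to 11.55 of Ay/+ arrays. The part of these lists in the result was not tested.

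The effect of ob/ob differed by sex in 5 members, all larger in males. Over all probe sets 2.84% were called in each direction, and the members' median difference between the effects was 0.48, against 0.23 over all probe sets. Ccnb2 rose by 1.98 in males and 0.94 in females, a difference of 1.04 ± 0.26 (limma interaction, adjusted p = 0.0145). For Tk1 the difference between the effects was 1.65 ± 0.45, for Stmn1 1.52 ± 0.44, for Mad2l1 1.36 ± 0.37 and for Cdc20 1.03 ± 0.30 (limma adjusted p = 0.0249, 0.0338, 0.0231 and 0.0335). Mad2l1 and Cdc20 were not called in females: Cdc20 ranged from 106 to 213 in lean and from 136 to 181 in ob/ob females, inside the lean range. 7 genes were called higher in both sexes, 70% of the 10 in females and 50% of the 14 in males: Cdk1, Ccnb2, Top2a, Pcna, Tk1, Kif11 and Stmn1. Over all probe sets 10.3% were called higher in ob/ob females and 5.62% in ob/ob males, and the share called in both is not given here.

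Ccnb2 was the only 1 of the 5 that stayed called whichever array was left out and after quantile normalization, where its difference was 0.95 (limma adjusted p = 0.0308). Quantile normalization moved the median over all probe sets from 0.23 to 0.03 and the share of calls larger in males from 50% to 39.6%. Scan day as a random block left 1 called member. All 4 ob/ob male arrays were later arrays, against 2 of 4 lean male, 1 of 4 ob/ob female and 1 of 4 lean female arrays. Sex and array batch can therefore not be fully told apart here. A fit with array batch as a fixed block kept the 5 calls. The number of called members was 2 without lean female 1 or ob/ob male 4. It was 3 without lean female 3, ob/ob female 2 or 3, lean male 2 or 4, or ob/ob male 2 or 3, and 11 without the 4 arrays that stood apart. In the ob/ob effect, 0 of 19 macrophage genes had a called difference between the sexes by limma (median −0.12) and 5 of 10 adipocyte genes were called more negative in males (median −1.07). The part of either list in the result was not tested.

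**Figure D3:**
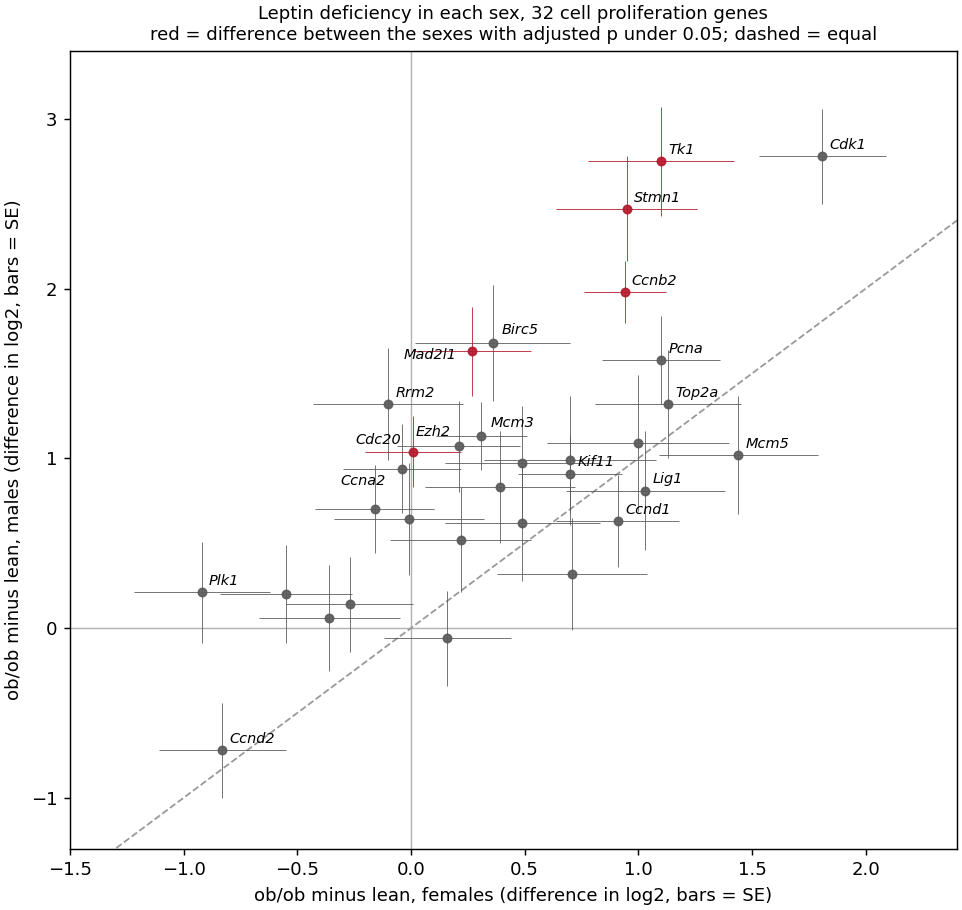
Log2 difference of ob/ob against lean mice in females (horizontal) and males (vertical) for the 32 members, with bars of 1 SE; the dashed line marks equal effects. Red points are the 5 members whose effects differed by sex; all 5 lie above the line, with Ccnb2 at 0.94 in females and 1.98 in males.

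Lean males and lean females differed in 2 members, both lower in males, against 5.22% of all probe sets called higher and 10.5% called lower. Rrm2 read 114, 46.4, 127 and 51.8 in lean females and 39.9, 4.56, 24.5 and 26.7 in lean males. Plk1 read 350.2, 187, 307 and 315 against 121.5, 118, 129 and 136. Neither overlapped, which held in the lower direction for 13.8% of all probe sets. The differences were −1.18 ± 0.33 and −1.04 ± 0.30 (limma adjusted p = 0.015 and 0.0185). The other probe sets of Plk1 were not called, at −0.65 and −0.45. Neither gene was called without lean female 1 or without lean female 3, while 1 member was called without lean male 2 and 4 without lean female 2 or without the 4 arrays that stood apart. After quantile normalization the share of calls higher in males went from 33.2% to 55.5%, the members' median went from −0.22 to 0.04, and Rrm2 was at −0.82 (adjusted p = 0.0869).

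With pioglitazone no member was called by limma in any of the 3 obese models. At an unadjusted p under 0.05 there were 4 of 32 in Ay/+ females, 0 in ob/ob females and 1 in diet-induced obese males. Over all probe sets 2.13%, 0.733% and 0.757% were called higher with the drug, in that order, and 0.910%, 0.330% and 0.660% lower. In Ay/+ females Cdk1 read 50.5, 22.96 and 72.2 with pioglitazone, overlapping the untreated 47.7 to 129, and differed by −0.74 (95% confidence interval −1.35 to −0.13). In ob/ob females it read 271, 230.5 and 134, against 93.1 to 214 untreated, a difference of 0.46 (−0.15 to 1.07). In diet-induced obese males it read 219, 162, 174 and 238, within the untreated range of 116 to 273, a difference of 0.09 (−0.52 to 0.70). The intervals allow differences of Cdk1 of more than 1 on the log2 scale downwards in Ay/+ and upwards in ob/ob females. For Ccnb2 the differences were −0.39 (−0.80 to 0.01), 0.07 (−0.33 to 0.48) and −0.07 (−0.48 to 0.33). The highest differences were those of Aurkb (0.85) in Ay/+ females, Rrm1 (0.50) in ob/ob females and Rrm1 (0.66) in diet-induced obese males. The lowest were those of Cdk1 (−0.74), a mitotic gene (−0.26) and Kif11 (−0.57), in the same order.

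The test of a difference between the pioglitazone effects in ob/ob and Ay/+ females called no member (limma; 1 of 32 at an unadjusted p under 0.05), against 0.0161% of all probe sets higher and 0.00805% lower. That member was Cdk1, at 1.20 ± 0.43 (adjusted p = 0.89). Without Ay/+ female 1, 1 member was called in the pioglitazone comparison in Ay/+ females, and 2 without the 4 arrays that stood apart. In diet-induced obese males none was called with or without the array of high GAPDH ratio. Macrophage genes were called in 1 of 19 cases, lower, in Ay/+ females and in none in the other models.

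CL316243 was given to ob/ob females on 2 arrays, and 1 member rose and 2 fell against untreated ob/ob females. Over all probe sets 1.55% were called higher and 2.18% lower. Ccnd2 read 695 and 839, above the untreated 344, 127, 373 and 591, and rose by 1.21 ± 0.35 (limma adjusted p = 0.0449). Pcna read 485 and 375, below the untreated 882 to 1063, and fell by 1.16 ± 0.32 on the log2 scale (limma adjusted p = 0.0357). Mad2l1 read 58.4 and 41.1, below the untreated 134 to 185, and fell by 1.28 ± 0.32 (limma adjusted p = 0.0212). Cdk1, at 104 and 108, lay within the untreated range. Without either CL316243 array, or without ob/ob female 1 or 2, none of the 3 was called, 1 member was called without ob/ob female 3, and the groups shared no scan day. After quantile normalization the share of calls that were higher over all probe sets went from 41.6% to 54.5%. Of the adipocyte genes 2 of 10 were called higher with CL316243, and their part in the result was not tested.

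Against pioglitazone-treated ob/ob females, at other doses of another compound, CL316243-treated females were higher in Ccnd2, by 1.37 ± 0.37, and lower in Mad2l1, by −1.28 ± 0.34, and Rrm1, by −2.13 ± 0.52 (limma adjusted p = 0.0173, 0.0144 and 0.0084). Over all probe sets 2.91% were called higher and 4.69% lower. Rrm1 read 17.2 and 19.7 with CL316243, below the added 23, and 223, 137 and 128 with pioglitazone. A second probe set of Rrm1 was not called, at 0.22 (limma adjusted p = 0.799). These 3 calls were all lost without either CL316243 array, and 1 member was called without pioglitazone-treated ob/ob female 1. The groups shared no scan day, and 3 of 10 adipocyte genes were called higher with CL316243. The GAPDH 3′ to 5′ ratio was 0.998 to 1.112 with CL316243 and 0.743 to 0.857 with pioglitazone, and that of ACTB 1.515 to 1.529 and 0.105 to 0.558, neither with overlap. The part of these measures in the result was not tested.

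Across the 10 groups, the mean signal of Cdk1 was lowest in lean males at 17.96 ± 7.54 (SD, n = 4) and lean females at 24.3 ± 4.54 (SD, n = 4). It stood at 48.6 ± 24.7 (SD, n = 3) in pioglitazone-treated Ay/+ females and 95.9 ± 34.6 (SD, n = 4) in untreated ones, whose arrays overlapped. The other groups lay between 106 ± 2.31 (SD, n = 2) in CL316243-treated ob/ob females and 260.1 ± 59.6 (SD, n = 4) in ob/ob males, with overlap between neighbours in that order. Ccnb2 was also lowest in lean males, at 219 ± 17.4 (SD, n = 4), and highest in ob/ob males, at 928.5 ± 60.1 (SD, n = 4), where every array lay above every array of the other groups.

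11 members were called in no pairwise comparison: Mki67, Mcm2, Mcm4, Mcm6, Mcm7, Aurka, Aurkb, Bub1, Cdc6, Prim1 and Hmgb2. They include 6 of the 10 replication genes and 4 of the 10 mitotic genes. Besides Mki67, other probe sets of the same gene gave a different answer for Tk1, where a further probe set rose with CL316243 by 1.41 and was lower in lean males than in lean females, by −0.93 (limma adjusted p = 0.0395 and 0.0446). They did so too for Rrm1, where one rose with pioglitazone in Ay/+ females by 1.13 (limma adjusted p = 0.0434), and for Mcm5, where one was lower in ob/ob than in Ay/+ females, by −1.24 (limma adjusted p = 0.0203). That Mcm5 probe set rose in Ay/+ against lean females, by 1.08 (limma adjusted p = 0.049), as the chosen one did. A second probe set of Mcm3 rose in ob/ob males, by 1.39 (limma adjusted p = 0.00252), as the chosen one did. A second probe set of Stmn1 stayed between 4.41 and 33.98 in lean and ob/ob males and was not called there (−0.31; limma adjusted p = 0.715). In ob/ob against lean females, second probe sets of called genes were not called: Tk1 (−0.57), Stmn1 (−0.56), Mcm5 (−0.17), Lig1 (−0.13) and Ccnd1 (0.27). That of Tk1 was also not called in ob/ob males (0.57), diet-induced obese males (0.19) and Ay/+ females (−0.43) against lean mice. In ob/ob against Ay/+ females, those of Rrm1 (0.02), Ccnd1 (0.09) and Stmn1 (−0.13) were not called. Nor was that of Stmn1 in diet-induced obese against lean males (−0.36). For the sex difference of the ob/ob effect, those of Tk1 (1.14) and Stmn1 (0.25) were not called either.

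Other cell cycle genes were counted from lists that leave out the members. In ob/ob against lean males 8 of 37 further mitotic genes rose and none fell, with a median of 0.63, including the kinesin Kif20a (1.85 ± 0.34), the spindle midzone protein Prc1 (1.71 ± 0.40) and Cks2 (1.59 ± 0.27), which binds cyclin-dependent kinases (limma adjusted p = 0.000162, 0.00268 and 6.23e-05). 5 of 38 further replication and S phase genes rose and none fell, with a median of 0.22. Of 30 G1 regulators and inhibitors 3 rose and 2 fell. Over all probe sets 5.62% were called higher and 4.96% lower in that comparison, with a median of 0.06. In diet-induced obese males 3 of the mitotic genes rose, among them Kif20a (1.42) and Cks2 (1.38), none of the replication genes did, and 1 of the G1 genes rose. Over all probe sets 1.22% were called higher and 0.628% lower there. In ob/ob against lean females 10.3% of all probe sets were called higher and 14.0% lower, with a median of −0.18. There 2 of the mitotic genes rose and 2 fell, with a median of 0.00. 7 replication genes rose and 3 fell, and 6 G1 genes rose and 1 fell. The called genes in these 3 lists included Gadd45b, a stress-induced growth arrest gene (1.79), the maintenance DNA methyltransferase Dnmt1 (1.24) and the securin Pttg1 (−1.09). In Ay/+ females Cdkn1a, which encodes the cyclin-dependent kinase inhibitor p21, rose by 1.46 (limma adjusted p = 2.04e-05). There 6.26% of all probe sets were called higher and 11.5% lower. With pioglitazone Gadd45b fell by 1.34 in Ay/+ females and by 1.38 in diet-induced obese males. The shares of all probe sets called lower with the drug were 0.910% and 0.660%. The counts of these lists in Ay/+ females and with pioglitazone are not given here.

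**Figure D4:**
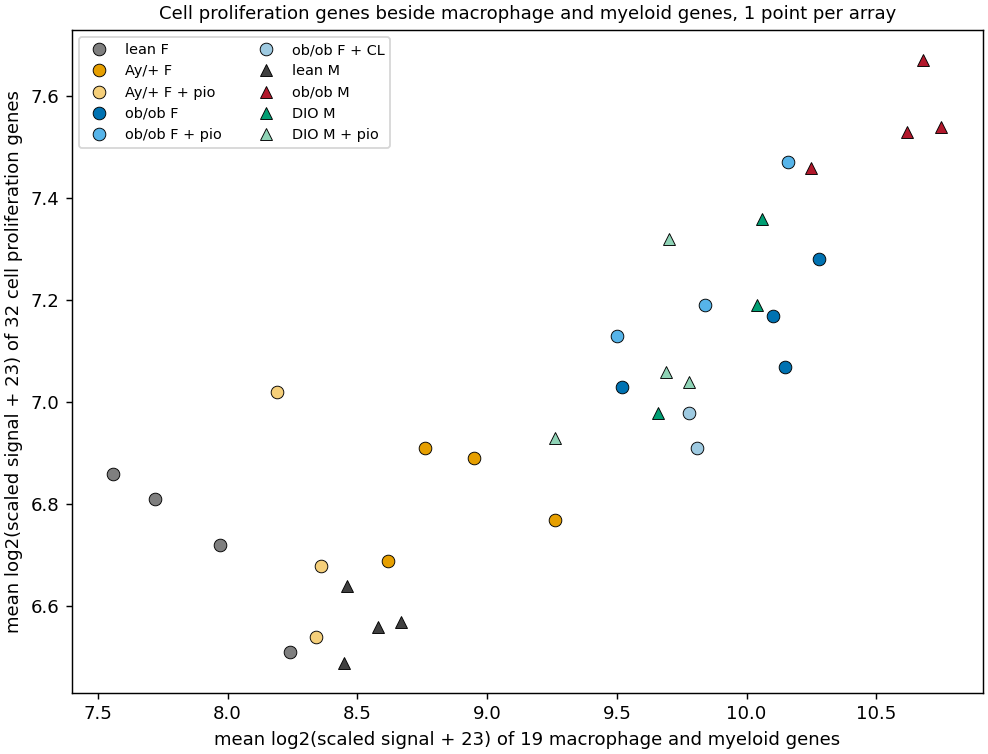
Mean log2 signal per array of the 32 members (vertical) against that of 19 macrophage and myeloid genes (horizontal) in the 35 arrays, coloured by group. The ob/ob male arrays lie at 7.46 to 7.67 and 10.25 to 10.75, and the lean female arrays at 6.51 to 6.86 and 7.56 to 8.24.

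By array, the mean log2 signal over the 32 members was 6.49 to 6.64 in lean males and 7.46 to 7.67 in ob/ob males, without overlap, and 6.98 to 7.36 in diet-induced obese males. In females it was 6.51 to 6.86 in lean, 6.69 to 6.91 in Ay/+ and 7.03 to 7.28 in ob/ob mice. The Ay/+ arrays overlapped the lean female ones in the members' mean, and so did the lean male arrays. The macrophage mean was 8.62 to 9.26 in Ay/+ females, 7.56 to 8.24 in lean females and 8.45 to 8.67 in lean males, and its part in the members' differences was not tested. Genes of T and NK cells (13) and of B cells (10) had no call in either obese male comparison.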

How the data were processed

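The deposited values are Affymetrix signals, an intensity per probe set on a linear scale, and the authors made them with MAS5, per the submitters' processing notes. The trimmed means of the deposited columns differed between arrays, so the arrays were brought to 1 level, a 2% trimmed mean of 250. After 66 control probe sets were left out, 12422 were tested: 10833 had 1 gene symbol, 396 several and 1193 none in the annotation of the array. The pseudocount of 23 was the 25th percentile of the scaled signals. The log2 values of all 35 arrays were fitted with group means in limma 3.58.1 (R 4.3.3), with a mean-variance trend and Benjamini-Hochberg adjustment over all probe sets. A gene was read from its probe set with the highest mean. The number of arrays limits the precision.

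The members, the other gene lists and the tests were chosen with earlier results of these data known. Values in every array or their range were given for called members, up to 20 per comparison by size, and members never called were named. Up to 3 genes per comparison were named from the other cell cycle lists. The alternatives were another pseudocount, a filter on low signals, quantile normalization, no trend, compared groups alone, every probe set of a gene, array batch, the replicate block and each array left out. Earlier arrays alone, later arrays alone, scan day as a random block and leaving out the 4 arrays that stood apart were chosen after seeing the data. The experiment files, text settings of each chip classed as other with no measurement, gave only the array batch and the scan day, per the file headers. The fit was tested on simulated data.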

Additional observations from a re-analysis of the deposited data

Results flagged for a closer look

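In 9 cases 1 array of a group of 4 stood far from the other 3 by Dixon's test, on the log2 scale. Chance gives about 1 in 20, or about 6 of the 126 cases examined. 5 of them were in males. For Rrm2, ob/ob male 1 was lowest at 6.30, with the others at 6.97 to 7.01. For Stmn1, ob/ob male 1 was again lowest, at 9.90 against 10.14 to 10.17. For Birc5, ob/ob male 3 was highest at 7.76, against 7.23 to 7.27. In pioglitazone-treated diet-induced obese male 2, Top2a was lowest at 4.88, against 6.25 to 6.39, and Ezh2 highest at 6.90, against 6.55 to 6.61. In females, Cdk1 was lowest in lean female 2 at 5.34, against 5.61 to 5.65, and Tk1 highest in lean female 4 at 7.48, against 5.89 to 5.96. Ccnd1 was highest in ob/ob female 4 at 9.04, against 8.51 to 8.57, and Ezh2 was highest in Ay/+ female 1 at 7.06, against 6.63 to 6.67.

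The effect of ob/ob differed between the sexes by the limma interaction in 5 members, with a larger effect in males by 1.65 for Tk1, 1.52 for Stmn1, 1.36 for Mad2l1, 1.04 for Ccnb2 and 1.03 for Cdc20 on the log2 scale.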

How the results depend on the processing

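Over 57 called member differences and all alternatives, 862 of 1067 values kept direction and call, 199 kept direction and lost the call, and 6 changed sign. The cause was not tested. All 6 came with later arrays alone, where lean female 4, Ay/+ female 1 and ob/ob female 4 each stood for their group. In ob/ob against lean females they were Ccnd2 0.20, Mcm5 −0.11 and Tk1 −0.96. In Ay/+ against lean females they were Ccne1 −0.26 and Mcm5 −0.08, and in ob/ob against Ay/+ females Rrm1 −0.82. Ay/+ female 1 and ob/ob female 4 were among the 4 arrays that stood apart. A lone array was there assumed to vary like the others. The share of all probe sets called is not given beside the counts under these alternatives. Counts of called members moved by over 1.5 times as follows. With the compared groups alone they were 7 in ob/ob against lean females, 0 in Ay/+ against lean females, 2 in ob/ob against Ay/+ females, 1 in ob/ob against diet-induced obese males, 0 with CL316243, 6 in CL316243 against pioglitazone and 1 between lean sexes. Quantile normalization gave 1 between lean sexes and 1 for the sex difference of the ob/ob effect, and counting any probe set gave 1 with pioglitazone in Ay/+ females. Earlier arrays alone gave 8 in Ay/+ against lean females, 1 with pioglitazone in Ay/+ females, 5 with CL316243, 5 in CL316243 against pioglitazone and 1 between lean sexes. Later arrays alone gave 2 in ob/ob and 0 in Ay/+ against lean females, 1 in ob/ob against Ay/+ females, 3 in diet-induced obese males, 1 between lean sexes and 3 for the sex difference. With scan day as a random block the counts were 6 in ob/ob and 3 in Ay/+ against lean females, 5 in ob/ob against Ay/+ females, 0 with CL316243, 1 in CL316243 against pioglitazone, 1 between lean sexes and 1 for the sex difference. Without the 4 arrays that stood apart they were 8 in Ay/+ against lean females, 1 in ob/ob against diet-induced obese males, 2 with pioglitazone in Ay/+ females, 5 in CL316243 against pioglitazone, 4 between lean sexes and 11 for the sex difference.

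Leaving out 1 array at a time gave 13 to 15 called members in ob/ob against lean males, 4 to 6 in diet-induced obese against lean males, 7 to 14 in ob/ob against lean females, 3 to 7 in Ay/+ against lean females, 4 to 9 in ob/ob against Ay/+ females, 0 to 4 with CL316243, 0 to 3 in CL316243 against pioglitazone, 0 to 4 between lean sexes, 2 to 7 for the sex difference and 0 to 1 with pioglitazone in Ay/+ females. The replicate block kept all 57 calls, with 14 members called in ob/ob males and 12 in ob/ob females. Samples of the same number did not deviate together (r from −0.30 to 0.19 over the pairs), so the numbers were not taken as pairs. Low signals limit Top2a, Kif11 and Cdk1 in lean mice, where the added 23 sets the size of a difference. They also limit Top2a (2.25 to 14.7) and the second Mki67 probe set (4.51 to 16.5) in Ay/+ females. Rrm2 and Birc5 in lean males also reached below 23, down to 4.56 and 14.3.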
